A study of Mus musculus with 2 samples.

Results

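The translation initiation factor genes are named after the proteins that bring the small ribosomal subunit to an mRNA and set it on the start codon. The name also takes in regulators of these proteins and some genes whose products act mainly elsewhere, such as Eif5a. They were taken as the protein-coding genes of the mouse GENCODE annotation (GRCm38) whose symbol starts with Eif and a digit, which gave 55 of 21951 genes. They were grouped by the name and role of their products. The groups were 5 eIF1 factors, 4 eIF2 subunits, 4 kinases of eIF2, 2 eIF2-like factors and 5 subunits of eIF2B. There were also 14 subunits of eIF3, 16 eIF4 cap and helicase factors with their binding partners, 4 eIF5 factors and Eif6. The rule used the gene names only, and no value of the crosslinking data.

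The values came from iCLIP, a crosslinking and immunoprecipitation method that resolves single nucleotides, in which UV light joins a protein to the RNA it touches and each recovered cDNA ends beside the joined nucleotide. There were 2 samples, replicates 1 and 2 of 1 group, which the study describes as independent experiments. Both held primary splenic B cells of C57BL/6 mice after 48 h of lipopolysaccharide (LPS, 10 µg/ml), from which cytoplasm was extracted. The sample titles name the protein Tia1, whereas the antibody entered in the labels is a goat anti-Tial1 one, Tial1 being the closest relative of Tia1, and the study's methods give a Tia1-specific antibody. The name Tia1 is used here as in the titles, and UV dose and RNase concentration are also given differently by labels and methods. No untreated cells and no control immunoprecipitation were analysed here, and mRNA abundance was not used, so the counts below measure recovery of crosslinked RNA and not the share of each mRNA that carried the protein.

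Initiation starts when eIF2, with GTP and the initiator tRNA, joins the small ribosomal subunit together with eIF1, eIF1A, eIF3 and eIF5. The eIF4 factors bind the mRNA cap and unwind the leader, the subunit scans to the start codon, and eIF5 and eIF5B then let the large subunit join. Phosphorylation of eIF2 by its kinases blocks the exchange factor eIF2B, and initiation complexes that stall in this way gather in stress granules, of which Tia1 is a component known for its affinity to U-rich RNA.

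The sequences below show the RNA at the position with the most cDNAs in the 3′UTR of the members with the highest counts and of a member of each complex, because they show how far the crosslinked RNA of different members was alike. No stretch is given for Eif1a, which had the most cDNAs of the eIF1 factors, so Eif1 is shown for that group. Each is a stretch of 29 nucleotides of the transcript strand read from GRCm38, 5′ to 3′, with the crosslinked nucleotide as the 15th letter and runs of at least 3 U in capitals.
Eif5a (chr11:69917225-69917253, minus strand): ccuauucaaaUUUaUUUgacgUUUUaUUU
Eif4a1 (chr11:69667326-69667354, minus strand): UUUUUUUUUUUgUUUcagUUUUUUUUcuc
Eif4g2 (chr7:111072523-111072551, minus strand): uucugcauaaggUUUUUguagugugaugu
Eif4g3 (chr4:138206388-138206416, plus strand): aaauaUUUUcugUUUUaaucUUUUcUUUU
Eif4a2 (chr16:23112468-23112496, plus strand): auaUUUgaUUUUcUUUUgucaugauuauu
Eif4b (chr15:102095874-102095902, plus strand): gaauugUUUUaUUUUUUUaccccccaagg
Eif4ebp2 (chr10:61433171-61433199, minus strand): uuggcacggguaUUUUUUaagcccuccug
Eif2ak3 (chr6:70905098-70905126, plus strand): ccuguaaauacgUUUaUUUUUUaUUUaua
Eif3a (chr19:60761738-60761766, minus strand): ucUUUUUgUUUUgUUUUgaaguaucagau
Eif1 (chr11:100322026-100322054, plus strand): UUUcccccuccagUUUcaauguuauguaa
Eif2s2 (chr2:154872481-154872509, minus strand): guaaggagguacUUUUUaaaaucguucau
Eif2a (chr3:58557289-58557317, plus strand): uauaUUUUUaaccaUUUauccaagguuga
Eif2b1 (chr5:124570686-124570714, minus strand): aacccaaacagcUUUUUaaaguuaaaugu
Eif6 (chr2:155819929-155819957, minus strand): caucucuugacaauuguuacuggaaagcc

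The crosslinked nucleotide was a U in all 14 stretches, which held between 9 and 23 U (median 13.5). Of these stretches, 13 contained a run of at least 3 U and 9 a run of at least 5 U. Eif6, which had 4 cDNAs at its position in replicate 1 and 0 in replicate 2, was the exception, with a longest run of 2 U. Eif4a1 had the most U of the 14, and its position carried 13 and 25 cDNAs in replicates 1 and 2, whereas the position shown for Eif5a carried 30 and 8.

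Replicate 1 held 639108 cDNAs at 342732 sites and replicate 2 held 165081 cDNAs at 93512 sites, 3.87 times fewer cDNAs. The pooled list of the authors, called on the sum of both libraries, held 867271 cDNAs at 422150 sites. It can exceed the sum of the replicate lists at a gene, because some sites passed the filter only when the libraries were added. Shares are given with exact (Clopper-Pearson) 95% intervals, which cover counting error only, since cDNAs of 1 gene are not independent replicates. The labelled cell type was checked on marker genes. Of 6 B cell markers, 5 had 3′UTR cDNAs in both replicates, with 2845 and 651 cDNAs in sum. Of 5 T cell markers found, 0 did, with 4 and 0 cDNAs and with Cd3d, Cd3g, Cd4 and Cd8a at 0, whereas 2 of 6 myeloid markers did (29 and 6 cDNAs, with Csf1r, Cd14 and S100a8 at 0). Their part in the results was not tested.

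Of the 55 initiation factor genes, 38 (69.1%) had at least 1 3′UTR cDNA in both replicates, which is the call used below, against 22.2% of the 21027 protein-coding genes with an annotated 3′UTR. At least 10 3′UTR cDNAs in each replicate were found for 22 members, against 11.9% of the same genes. Because genes that are not transcribed in B cells cannot be called, the share was also taken over genes with any exonic site in the pooled list. There it was 38 of 49 members (77.6%) against 4665 of 7814 genes (59.7%). Without restriction to genes with an exonic site, the share called was higher among members than among all genes in each class of 3′UTR length. It was 4 of 10 members (40%) against 6.74% of genes below 200 nt, 6 of 8 against 15.1% from 200 to below 500 nt, 8 of 10 against 21.4% from 500 to below 1000 nt, 8 of 11 (72.7%) against 26.9% from 1000 to below 2000 nt, and 12 of 16 (75%) against 31.9% from 2000 nt. The part of mRNA abundance in these shares was not tested.

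**Figure D1:**
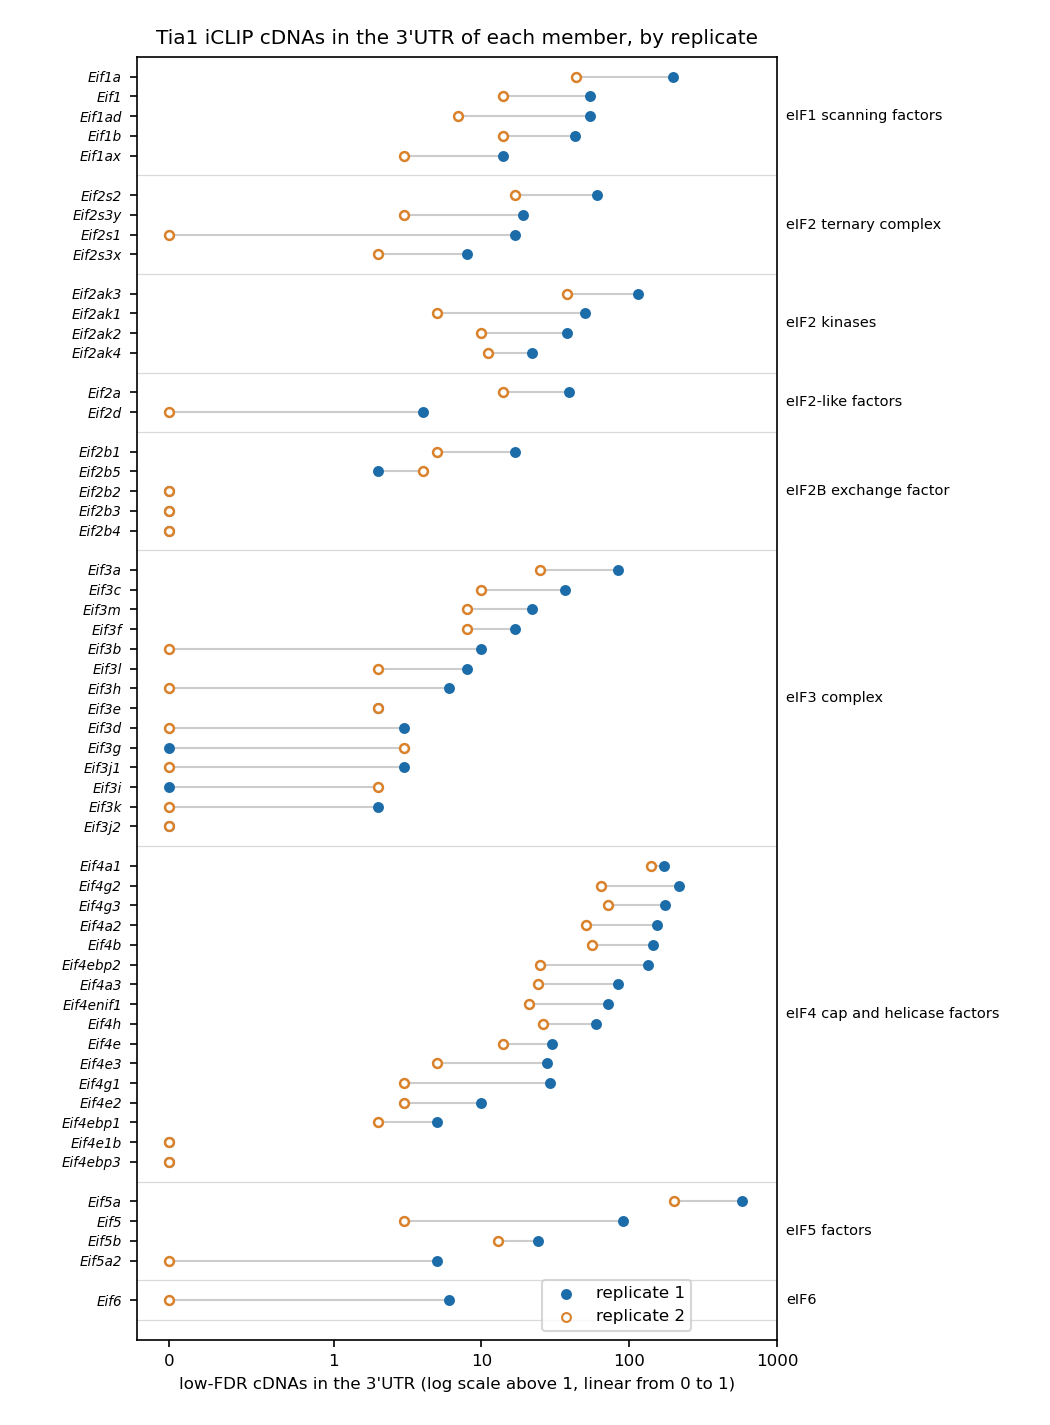
Unique 3′UTR cDNAs of each initiation factor gene (x axis, linear from 0 to 1 and logarithmic above) in replicate 1 (filled blue) and replicate 2 (open orange), with genes grouped by complex. Eif5a lies farthest to the right in both replicates with 577 and 200 cDNAs, and most eIF2B and eIF3 genes lie at or near 0 in replicate 2.

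By complex, the called members were 5 of 5 eIF1 factors, 3 of 4 eIF2 subunits, 4 of 4 eIF2 kinases, 1 of 2 eIF2-like factors, 2 of 5 eIF2B subunits, 6 of 14 eIF3 subunits, 14 of 16 eIF4 factors, 3 of 4 eIF5 factors and 0 of 1 for Eif6. With at least 10 cDNAs in each replicate these counts became 3, 1, 3, 1, 0, 2, 10, 2 and 0. The 17 members without a call were Eif2s1, Eif2d, Eif2b2, Eif2b3, Eif2b4, Eif3b, Eif3d, Eif3g, Eif3h, Eif3i, Eif3j1, Eif3j2, Eif3k, Eif4e1b, Eif4ebp3, Eif5a2 and Eif6. Of these, Eif2b2, Eif2b3, Eif2b4, Eif3j2, Eif4e1b and Eif4ebp3 had no cDNA at all in the pooled list. A 0 here means that no site passed the filter of the authors, not that no cDNA was sequenced.

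The genes of the eIF1 group, named after factors that keep the scanning subunit from stopping at a wrong codon, all carried 3′UTR cDNAs in both replicates. Eif1a had 198 and 44 in replicates 1 and 2, the highest count of the group. Eif1, whose product guards start codon choice, had 54 and 14, and nearly all of these, 53 and 14, lay between 647 and 680 nt after the stop codon of a 735 nt 3′UTR. Eif1b, a close relative of Eif1, had 43 and 14, of which 34 and 14 lay from 257 to 317 nt in a 3′UTR of 373 nt. Eif1 and Eif1b thus each carried most of their cDNAs in 1 stretch of the last part of the 3′UTR. Eif1ad had 54 and 7 cDNAs and the X-linked Eif1ax had 14 and 3. Per length the order of these genes differed from that of the counts, with 153 cDNAs of both replicates per kb of 3′UTR for Eif1b, 110 for Eif1a, 71.3 for Eif1, 42.3 for Eif1ad and 3.77 for Eif1ax. Eif1ax was also the single member with a higher level per kb in its coding sequence (CDS), 18.4, than in its 3′UTR.

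Among the subunits of eIF2, which carries the initiator tRNA, the β subunit gene Eif2s2 had the most 3′UTR cDNAs, 61 in replicate 1 and 17 in replicate 2. Those of Eif2s2 fell mainly between 225 and 295 nt (29 and 9) and between 111 and 137 nt (12 and 5) after the stop codon. The α subunit gene Eif2s1, whose product is the one that the kinases phosphorylate, had 17 cDNAs in replicate 1 and 0 in replicate 2. The paired γ subunit genes on the sex chromosomes had few in both replicates, with 8 and 2 for Eif2s3x and 19 and 3 for Eif2s3y. Only Eif2s2 passed 10 cDNAs in both libraries, so the order of the other subunits rests on small numbers. Per kb of 3′UTR the levels were 64.1 for Eif2s3y, 59.3 for Eif2s2, 8.12 for Eif2s1 and 4.54 for Eif2s3x.

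All 4 kinases of eIF2 were called. Eif2ak3, which encodes the kinase PERK that responds to stress of the endoplasmic reticulum, had 115 and 38 3′UTR cDNAs, the most of the group, and 60 and 32 of them lay between 775 and 873 nt after the stop codon of a 957 nt 3′UTR. Eif2ak1, the haem-regulated kinase, had 50 and 5 cDNAs. Eif2ak2, the kinase PKR activated by double-stranded RNA, had 38 and 10, and Eif2ak4, the kinase GCN2 activated by uncharged tRNA, had 22 and 11. Eif2ak3 stood above the others per length as well, with 122 cDNAs per kb of 3′UTR against 35.9 for Eif2ak4, 23.3 for Eif2ak1 and 18.6 for Eif2ak2. Replicate 2 gave 9.09% (3.02 to 20) of the cDNAs of Eif2ak1, below the 21% (20.9 to 21.1) it gave over all protein-coding genes.

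Of the eIF2-like factors, which can bring initiator tRNA to the ribosome without eIF2, Eif2a had 39 and 14 3′UTR cDNAs and Eif2d had 4 and 0. The exchange factor eIF2B, which reloads eIF2 with GTP, was the complex with the lowest counts. Eif2b1 (α subunit) had 17 and 5 3′UTR cDNAs, of which 12 and 5 lay from 484 to 497 nt after the stop codon, and Eif2b5, the catalytic subunit, had 2 and 4. No cDNA was found for Eif2b2, Eif2b3 or Eif2b4, although the annotated 3′UTR of Eif2b3, 2448 nt in all, is longer than that of Eif2b1 with 977 nt. All 30 pooled cDNAs of the eIF2B genes lay in 3′UTRs.

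The eIF3 complex is the large scaffold that binds the small subunit and links it to eIF4G. As a set its genes had the largest CDS share of cDNAs among the complexes, although single members differed. Eif3a, which encodes the largest subunit, had 84 and 25 3′UTR cDNAs, and Eif3c, also of the core, had 37 and 10. Those of Eif3c fell almost all between 35 and 63 nt after the stop codon (32 and 10). In Eif3a the leading stretch was not the same in the 2 libraries. The stretch from 317 to 350 nt had 29 and 12 cDNAs, whereas that from 792 to 864 nt had 35 in replicate 1 and 0 in replicate 2. Eif3m had 22 and 8 cDNAs within a 3′UTR of only 65 nt, and Eif3f had 17 and 8. The remaining called members, Eif3l (8 and 2) and Eif3e (2 and 2), had fewer cDNAs in the 3′UTR than in the CDS.

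In the CDS, Eif3a had 72 and 10 cDNAs, Eif3l had 25 and 9, and Eif3e had 22 and 10. Eif3b had 12 and 6, and Eif3c 18 and 0. Over the 14 eIF3 genes 269 of 573 pooled cDNAs were in the CDS, a share of 46.9% (42.8 to 51.1), with 46.6% (41.6 to 51.6) in replicate 1 and 40.0% (30.3 to 50.3) in replicate 2. The mean over the replicates was 43.3% ± 4.68 (SD, n = 2). Eif3a held 93 of the 269 pooled CDS cDNAs, whereas Eif3d, Eif3j1, Eif3j2 and Eif3k had none in the CDS. Of the other complexes the eIF2-like factors came next with a CDS share of 28.0%. Single genes elsewhere reached shares like that of eIF3, such as Eif5b with 47.4% and Eif2s1 with 37.9%. Over all protein-coding genes the CDS share was 6.81% in the pooled list, 6.91% in replicate 1 and 3.50% in replicate 2, and all 3 values lay below the eIF3 intervals. More pooled cDNAs in the CDS than in the 3′UTR were found for 5 initiation factor genes, which were all of this complex (Eif3b, Eif3e, Eif3g, Eif3i and Eif3l). That is 10.2% of the 49 members with a pooled exonic site, near the 8.0% of all genes with such a site (625 of 7814).

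The 3′UTRs of the eIF3 genes are short, with a median of 184 nt for the longest annotated 3′UTR of a gene against 977 nt for all members and 961 nt for all genes, so the shares were also compared within length classes. Below 200 nt, 61.3% of the pooled cDNAs of the 8 eIF3 genes were in the CDS, against 19.2% for all genes of that class. From 500 to below 1000 nt the CDS share was 41.6% for 3 eIF3 genes against 8.32%, and from 1000 to below 2000 nt 18.9% for 2 genes with 37 cDNAs against 6.67%. The longest class, from 2000 nt, held only Eif3j1 with 3 pooled cDNAs, of which 0 were in the CDS, against 4.94% for all genes. Per length the 3′UTR was still the denser feature. In 13 of 14 eIF3 genes the cDNAs of both replicates per kb were higher in the 3′UTR than in the CDS, and Eif3j2 had none. Part of this rests on very few 3′UTR cDNAs, with 2 each in Eif3i and Eif3k, 3 each in Eif3d, Eif3g and Eif3j1, and 4 in Eif3e. Eif3d, Eif3j1 and Eif3k had no CDS cDNA. The median level per kb of CDS was 6.88 for the eIF3 genes, 2.17 for all members and 0 for all genes, whereas the median level per kb of 3′UTR was 27.7 for eIF3. Eif3e had nearly equal levels, with 23.9 per kb of CDS and 28.4 per kb of 3′UTR.

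**Figure D2:**
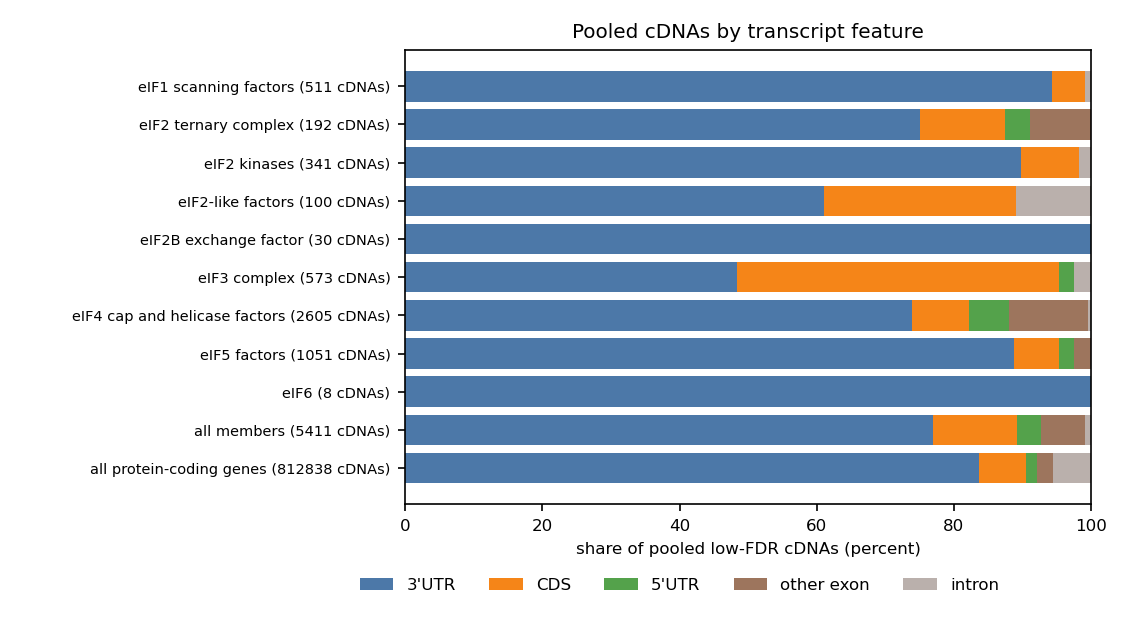
Share of pooled cDNAs (x axis, percent) in 5′UTR, CDS, 3′UTR, other exonic sequence and introns for each complex, for all initiation factor genes and for all protein-coding genes. The CDS takes 46.9% in eIF3 against 8.33% in eIF4 and 6.81% over all protein-coding genes.

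The RNA at the leading CDS positions is shown for 3 members with high CDS counts, in the same form as above, to set it against the 3′UTR stretches.
Eif3l (chr15:79086483-79086511, plus strand): uuggcUUUgcguaUUUaaugaugcgucga
Eif3e (chr15:43265543-43265571, minus strand): ucucuaUUUgUUUUUUUcaaccauccaaa
Eif4g2 (chr7:111073921-111073949, minus strand): cauguuacuucgaUUUUUUguucacuucu
The crosslinked nucleotide was again a U in each, and each held a run of at least 3 U. The cDNAs at these positions were 2 and 1 in Eif3l, 2 and 3 in Eif3e, and 5 and 5 in Eif4g2.

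The eIF4 factors recognise the cap, unwind the leader and join the mRNA to eIF3, and 14 of 16 of their genes were called. Eif4a1, the main RNA helicase of initiation, had 171 and 140 3′UTR cDNAs. Of these, 145 in replicate 1 (84.8%) and 140 in replicate 2 (100%) lay in a single stretch of 37 nt, from 99 to 135 nt after the stop codon, around the U-rich sequence shown above. Its paralogue Eif4a2 had 155 and 51 cDNAs divided over several stretches, of which the largest lay from 1191 to 1230 nt (62 and 23) and from 105 to 150 nt (57 and 22). The related helicase Eif4a3, a subunit of the exon junction complex, had 84 and 24, mostly between 109 and 158 nt (70 and 24) of a 3′UTR of 180 nt. All 3 helicase genes thus had most cDNAs in 1 or 2 short stretches that both libraries showed.

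The scaffold genes were next. Eif4g2, a relative of eIF4G that lacks the part that binds the cap protein, had 216 and 64 3′UTR cDNAs spread over many stretches, with the largest from 84 to 202 nt (70 and 27). Eif4g3 had 176 and 72, led by the stretch from 215 to 280 nt (70 and 35). Eif4g1, the major scaffold, had fewer, 29 and 3, in a shorter 3′UTR. Per kb of 3′UTR the order was reversed in the sum, with 70.6 cDNAs of both replicates for Eif4g1, 60.8 for Eif4g3 and 53.5 for Eif4g2. That order rests on replicate 1 and on the union of 3′UTRs. In replicate 2 alone Eif4g1 was the lowest per kb, and over the longest single 3′UTR (2354 nt in Eif4g3) Eif4g3 was first. The helicase partners Eif4b and Eif4h, which stimulate eIF4A, had 144 and 56 and 60 and 26 cDNAs. In Eif4b the leading stretch was that from 544 to 576 nt (60 and 23).

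Among the cap-binding proteins and their partners, the gene of the cap-binding protein itself, Eif4e, had 30 and 14 3′UTR cDNAs. Its relatives Eif4e2 (10 and 3) and Eif4e3 (28 and 5) had fewer. Per kb of 3′UTR, however, Eif4e3 stood highest in the sum with 17.6 cDNAs of both replicates, against 10.5 for Eif4e and 2.18 for Eif4e2. That order rests on replicate 1, since in replicate 2 alone Eif4e was above Eif4e3. The repressors of eIF4E differed from each other, with 134 and 25 for Eif4ebp2, 5 and 2 for Eif4ebp1 and none for Eif4ebp3. Eif4enif1, which carries eIF4E into the nucleus, had 72 and 21, of which 43 and 18 lay from 332 to 363 nt. For Eif4ebp2, 55 and 10 cDNAs lay from 587 to 633 nt, and the rest were spread over a 3′UTR of 5306 nt.

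**Figure D3:**
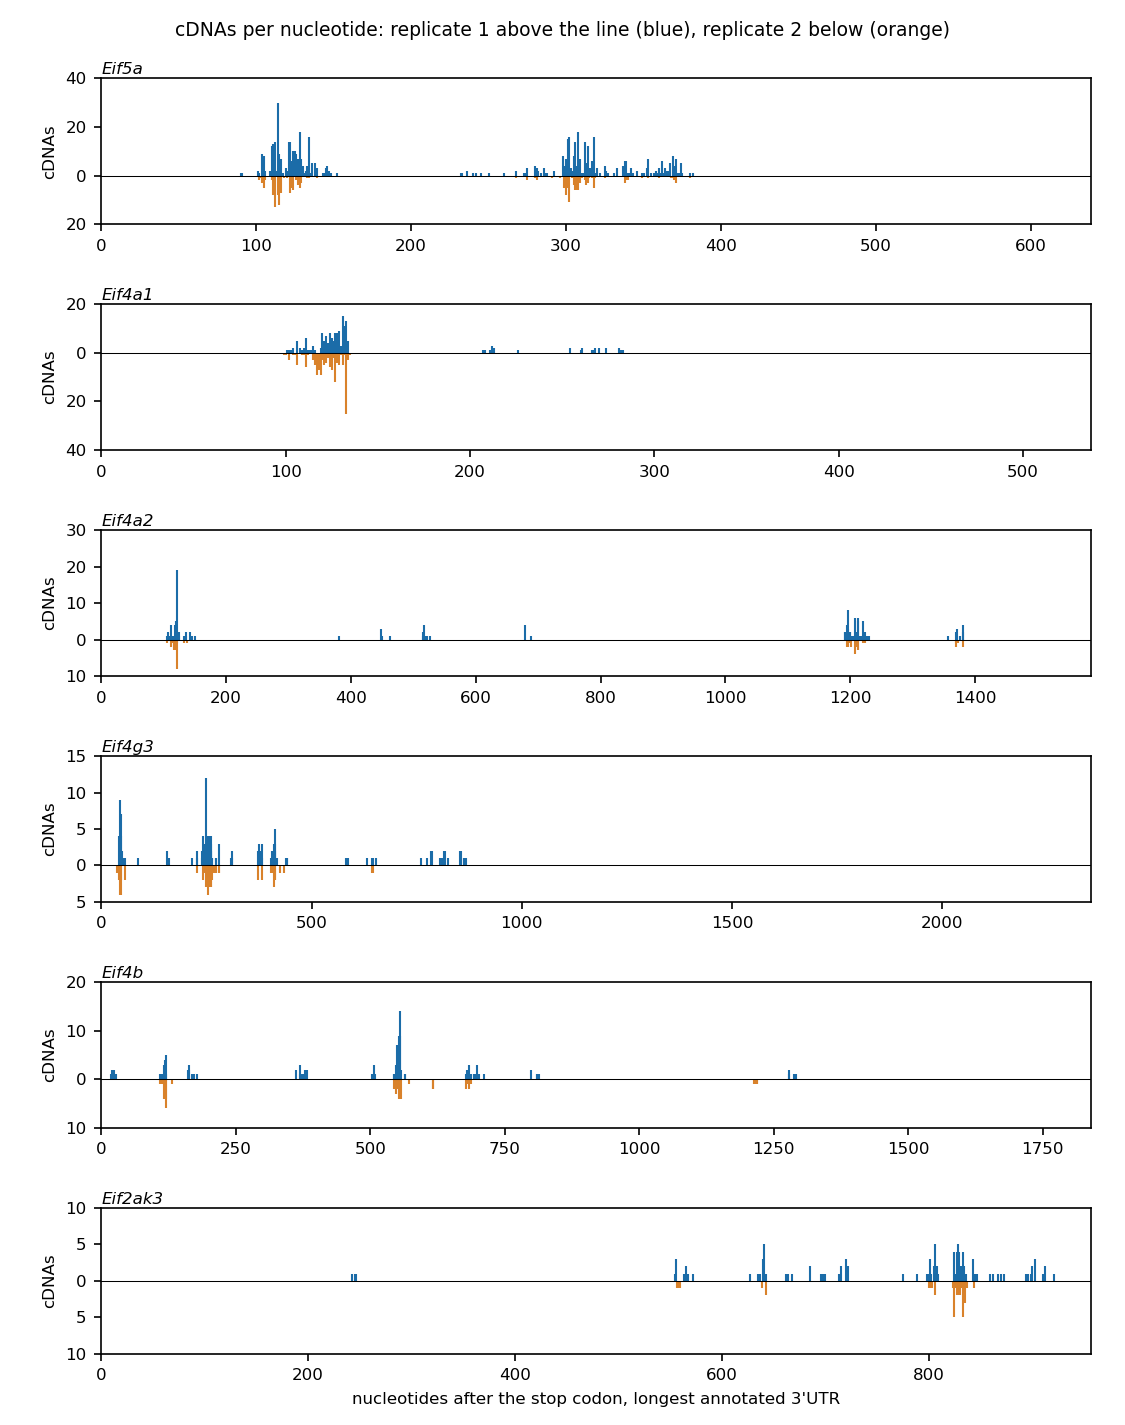
Unique cDNAs per nucleotide along the 3′UTR (x axis, nt after the stop codon) of Eif5a, Eif4a1, Eif4a2, Eif4g3, Eif4b and Eif2ak3, with replicate 1 above and replicate 2 below the axis. The replicates show stretches at the same positions, such as 99 to 135 nt in Eif4a1 and 775 to 873 nt in Eif2ak3.

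The eIF5 group joins unlike proteins that share a name. Eif5a, whose product acts mainly in elongation and termination, had the most 3′UTR cDNAs of all members, 577 and 200 in replicates 1 and 2. All of them lay between 231 and 382 nt (309 and 100) and between 90 and 152 nt (268 and 100) after the stop codon of a 639 nt 3′UTR. Its paralogue Eif5a2 had 5 and 0. Eif5, which makes eIF2 hydrolyse its GTP, had 91 cDNAs in replicate 1 and 3 in replicate 2, so that replicate 2 gave 3.19% (0.663 to 9.04). This was the lowest share among the 20 members with at least 50 3′UTR cDNAs in sum, and the level of Eif5 thus rests on replicate 1. Eif5b, the GTPase of subunit joining, had 24 and 13, of which 20 and 8 lay from 191 to 244 nt. Eif6, which keeps free large subunits from joining, had 6 and 0.

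Per length, Eif5a was again first, with 1072 cDNAs of both replicates per kb of 3′UTR, at percentile 99.7 of all protein-coding genes with a 3′UTR. Eif4a3 (600, percentile 99.4), Eif4a1 (579, percentile 99.3) and Eif3m (462, percentile 98.9) came next. The median over the 55 members was 28.4 cDNAs per kb of 3′UTR, with quartiles of 6.61 and 71.0. Over the protein-coding genes with an exonic site in the pooled list the median was 16.1, with quartiles of 3.46 and 59.9, and the median of the 49 members with such a site was 35.9. By complex the medians on this scale were 85.0 for the eIF2-like factors, 71.3 for eIF1, 50.8 for eIF4 and 33.7 for eIF2. They were 29.6 for the kinases, 27.7 for eIF3, 26.8 for eIF5, 5.10 for Eif6 and 0 for eIF2B. That of the eIF2-like factors is only the midpoint of 2 genes, Eif2a at 168 and the uncalled Eif2d at 1.84. The levels within each complex spread more widely than these medians, from 0 to 600 in eIF4 alone, and no test was made of the order.

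**Figure D4:**
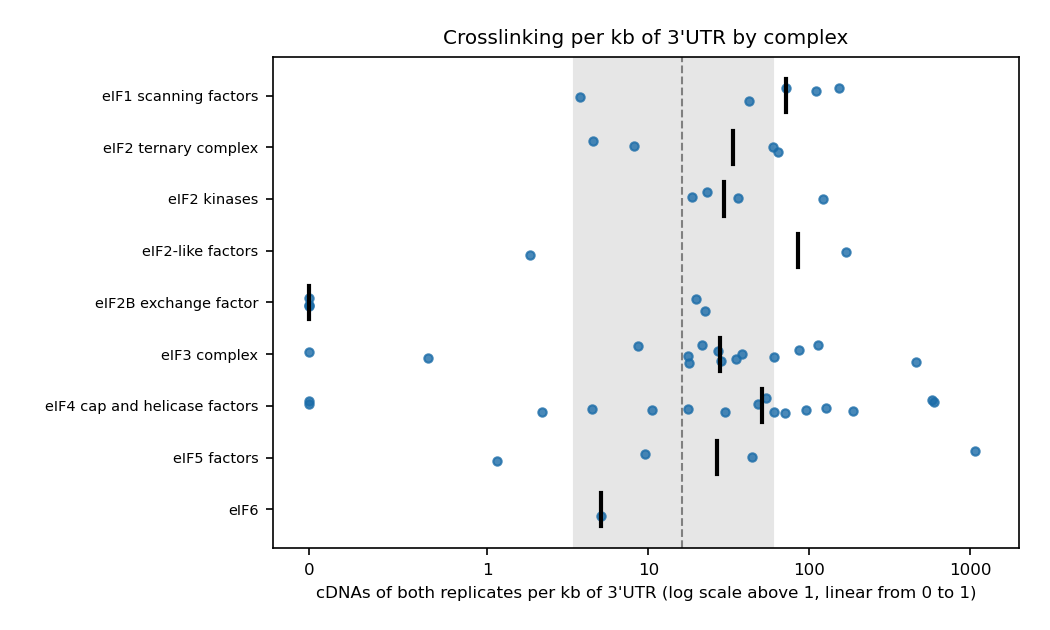
cDNAs of both replicates per kb of 3′UTR for each initiation factor gene (points) by complex, with the median of each complex as a black bar. The grey band spans the quartiles (3.46 to 59.9) and the dashed line marks the median (16.1) of protein-coding genes with an exonic site, and Eif5a, Eif4a3 and Eif4a1 lie highest.

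Over all members 77.0% (75.8 to 78.1) of the pooled cDNAs were in 3′UTRs, with 78.1% in replicate 1 and 82.5% in replicate 2, a mean of 80.3% ± 3.07 (SD, n = 2). The corresponding values over all protein-coding genes were 83.7%, 84.4% and 88.5%. The CDS held 12.2% of the pooled member cDNAs against 6.81% for all genes, and introns 0.906% against 5.53%. The 5′UTR held 3.57% against 1.60%, and other exonic sequence 6.36% against 2.37%. These last 2 member shares rest largely on Eif4g2. Without that gene they were 0.935%, below the value of all genes, and 2.59%, whereas the CDS share was 11.4%. By complex the 3′UTR share of the pooled cDNAs was 94.3% for eIF1, 89.7% for the kinases, 88.7% for eIF5, 75% for eIF2, 73.9% for eIF4, 61.0% for the eIF2-like factors and 48.3% (44.2 to 52.5) for eIF3. Single genes moved the 3′UTR share of all members in both directions, to 84.0% without Eif4g2 and to 73.7% without Eif5a. Without sites in small RNA genes it was 80.5%.

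Eif4g2 (chr7:111067750-111083030, minus strand) was the member with the most cDNAs outside the 3′UTR. Its CDS held 70 and 21 cDNAs in replicates 1 and 2, with 38 and 21 at chr7:111073881-111073945. Its 5′UTR held 121 and 28, with 81 and 24 at chr7:111081551-111081633 and 39 and 4 at chr7:111082832-111082882. A further 130 and 71 lay at chr7:111076100-111076164 and fell in an annotated small nucleolar RNA (Gm23262) inside the gene, where cDNAs of that RNA and of the Eif4g2 transcript cannot be told apart. The sequence at the leading 5′UTR position, which carried 11 and 0 cDNAs, is shown because this gene held most of the 5′UTR cDNAs of the members.
Eif4g2 (chr7:111081563-111081591, minus strand): uuaauauuauucUUUUgaagauucuucgu

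**Figure D5:**
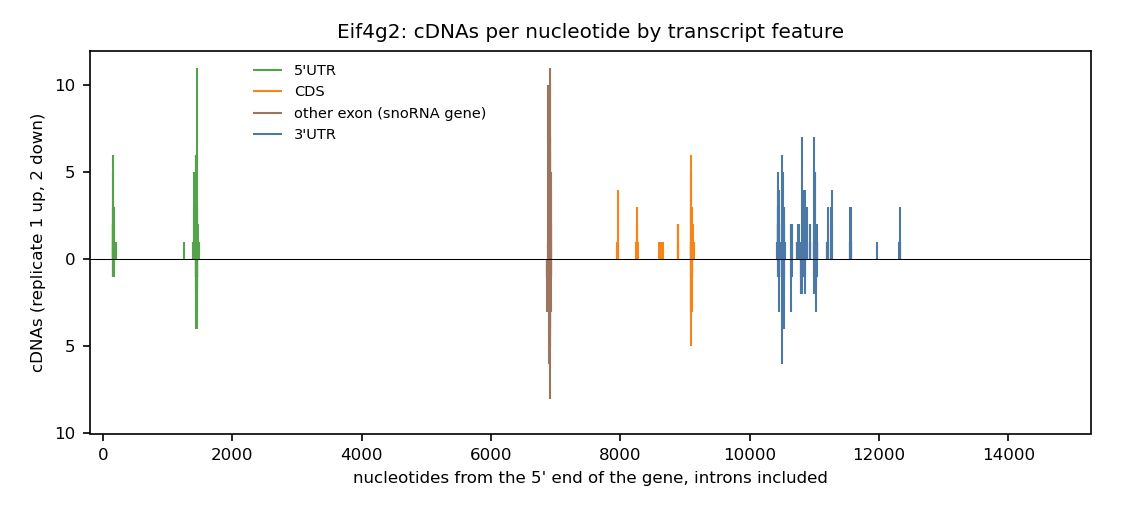
Unique cDNAs along the Eif4g2 gene (x axis, distance from its 5′ end with introns included) by feature, with replicate 1 above and replicate 2 below the axis. Both replicates show cDNAs in the 5′UTR (121 and 28), in the CDS (70 and 21), at the small nucleolar RNA (130 and 71) and in the 3′UTR (216 and 64).

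Pooled 5′UTR cDNAs were found for 8 of 55 members, against 3.32% of protein-coding genes. Among genes with a pooled exonic site these were 8 of 49 members against 728 of 7814 genes. After Eif4g2 with 150 pooled cDNAs came Eif5 with 14 (10 and 4 in replicates 1 and 2), Eif5a with 9 (9 and 0), Eif2s3x with 7 (6 and 0) and Eif3m with 5 (5 and 0). Only Eif4g2 and Eif5 thus had 5′UTR cDNAs in both replicates. Pooled CDS cDNAs were found for 31 of 55 members, against 15.3% of protein-coding genes, and CDS cDNAs in both replicates for 12 members, against 3.4%. Among genes with a pooled exonic site these were 31 and 12 of 49 members, against 3360 and 746 of 7814 genes. These 12 were 6 genes of eIF3, 4 of eIF4, Eif2a (17 and 3) and Eif5b (30 and 4). Most CDS cDNAs of Eif5b, 18 and 2, lay at chr1:38049252-38049293.

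Pooled intron cDNAs were found for 6 of 55 members, against 11.7% of protein-coding genes. Among genes with a pooled exonic site these were 6 of 49 members against 1893 of 7814 genes. The pooled intron cDNAs numbered 14 in Eif3a (10 and 0 in the replicates), 12 in Eif4e (8 and 4) and 11 in Eif2a (0 and 3). Eif2ak2 had 6 (0 and 3), Eif1a had 5 (4 and 0) and Eif4enif1 had 1. Eif4e was the only member with intron cDNAs in both replicates, all of them at chr3:138547765-138547781. Other exonic cDNAs, outside the coding transcripts, were found beside Eif4g2 mainly in Eif4a2, with 48 and 15, of which 27 and 11 lay at chr16:23108674-23108703 in an exon of a transcript annotated as a retained intron. Annotated small RNAs that overlap each other in this gene (Snora81 and Gm49346) held 11 of the 71 pooled cDNAs of this kind in Eif4a2.

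The 3′UTR sites of the members were rich in U. In windows of 31 nt centred on the 1791 pooled 3′UTR sites of the members 41.6% of nucleotides were U, against 29.9% over their whole 3′UTRs. At the 310 sites found in both replicates the value was 48.2%. The other protein-coding genes gave 44.8% at their sites against 29.8% over their whole 3′UTRs. With each pooled site counted once, the members' sites were thus somewhat less rich in U than those of the other genes. The member value was 45.9% with sites weighted by cDNAs and 46.6% at sites of replicate 2. The other genes were not measured in these ways, so the order is not settled. At 72.3% of the member sites and 73.9% of the others the crosslink was on a U. The motif UUUUU, searched on the transcript strand, was in 32.6% (30.4 to 34.8) of the windows at member sites, against 7.41% of windows at every position of the same 3′UTRs. In the other genes the shares were 38.9% and 7.5%.

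Among the 35 members with at least 10 pooled 3′UTR sites, the sites were richer in U than the whole 3′UTR in all 35, with a median of 40.7% against 30%. The value at sites ran from 29.6% in Eif3c to 56.6% in Eif4a1. Over the 154 3′UTR sites of the eIF3 genes it was 35.5% against 29.6% for their whole 3′UTRs, a smaller gap than that of all members. At the 439 member CDS sites 34.1% of nucleotides were U against 21.6% over the whole CDS, UUUUU was in 19.1% of windows against 2.08% at every CDS position, and the crosslinked nucleotide was U at 74.0%. The 191 CDS sites of the eIF3 genes gave 34.3% against 20.9%. At the 93 member 5′UTR sites the value was 35.1% against 20.7%, and at 5′UTR sites of other genes 44.8%.

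The replicates were compared at the level of sites and of genes. In the 3′UTRs of the members replicate 1 had 1451 sites and replicate 2 had 496, of which 310 were shared, or 62.5% (58.1 to 66.8) of those of replicate 2, against 64.6% over all protein-coding genes. For 22 members with at least 10 cDNAs in each replicate, the stretch with the most cDNAs was the same in both replicates for 19. Among these 19 is Eif5a, in which the leading stretch of replicate 1 tied with another in replicate 2, at 100 cDNAs each. The exceptions were Eif1a, Eif2a and Eif3a. Replicate 2 gave 24.7% (23.4 to 26.1) of the members' 3′UTR cDNAs, more than the 21% over all genes. Of the 20 members with at least 50 cDNAs, the interval lay above that value for Eif4a1 (45.0%, 39.4 to 50.7), Eif4g3 (29%, 23.5 to 35.1), Eif4b (28.0%, 21.9 to 34.8) and Eif5a (25.7%, 22.7 to 29), and below it for Eif2ak1 and Eif5.

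The position of the leading stretch varied among members. In the 45 members for which it fell in the longest annotated 3′UTR, it ended at a median of 425 nt before the end of that 3′UTR, within 100 nt of it in 11 members and within 300 nt in 19. No 3′UTR cDNA of a member was also in the 3′UTR of another gene. The sources used here do not say how reads with several matches were handled, so the 30 nt after each site were searched for elsewhere in GRCm38. They recurred for 354 of 4165 pooled 3′UTR cDNAs (8.50%), and for none in 29 of 49 members. The share was 100% for Eif3j1 and 63.6% for Eif2s3x, 33.3% for Eif3e and Eif3m, 27.6% for Eif2s2, 24.2% for Eif5a, 22.2% for Eif4ebp1, 18.4% for Eif4e and 17.9% for Eif4a2, so the counts of these genes are uncertain to that extent. The calls of Eif2s3x, Eif3e and Eif4ebp1 also rest on few cDNAs. The share was lower in the other members. In the CDS of Eif5a it was 53.6%.

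Genes that act beside the initiation factors were listed for comparison. The call was met by 22.2% of protein-coding genes with an annotated 3′UTR and by 59.7% of protein-coding genes with a pooled exonic site. Of 26 other genes of translation control 15 were called, with a median of 39.2 cDNAs per kb of 3′UTR. Among them Abce1, which recycles ribosomes, had 279 and 121 3′UTR cDNAs, and Ppp1r15b, which directs the removal of phosphate from eIF2, had 259 and 78. Larp1, a repressor of mRNAs that encode ribosomal proteins, had 211 and 52, and Mknk2, a kinase of eIF4E, had 208 and 55. The poly(A)-binding protein gene Pabpc1 had 70 and 22, with 317 pooled cDNAs in the CDS, and its inhibitor Paip2 had 112 and 45. Of 7 listed genes whose symbol starts with Eef, 4 were called (median of the 7, 12.6 cDNAs per kb of 3′UTR). These were the elongation factor genes Eef1b2 (9 and 2) and Eef2 (158 and 61), and also Eef1e1 (292 and 128) and Eef2k (10 and 7). The last 2 do not encode elongation factors. Of the release factor genes 2 of 3 were called, with 177 and 53 for Etf1 and 225 and 64 for Gspt1. Counts like those of the leading eIF4 members were therefore also found in genes of recycling, elongation and termination.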

How the data were processed

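Tia1 iCLIP of LPS-activated mouse B cells was used as deposited. The authors ran the iCount pipeline, in which reads were sorted by the fixed bases of their barcode, its random bases served to remove PCR duplicates, and mapping was done with Bowtie, per the submitters' processing notes (version not given in the sources used here), to mm9 with annotation of Ensembl 59. Sites with a false discovery rate under 0.05 (100 permutations, 15 nt neighbourhood) were kept for each replicate and for the sum, and the pooled list was lifted by the authors to mm10 (GRCm38). The deposited values are signed counts of unique cDNAs per crosslinked nucleotide, in which the sign gives the strand, with no scaling to depth. The members and gene lists were chosen with earlier results of these data known.

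Replicate sites were placed on GRCm38 through the pooled mm9 list, which holds the same sites in the same order, and 98.9% and 99.1% of the cDNAs of replicates 1 and 2 were placed. At all 58002 sites shared by the replicates the pooled count equalled their sum. No column was left without a sample. Sites were assigned on the gene's strand (GENCODE M21) to CDS, then 3′UTR, 5′UTR, other exon and intron. The 3′UTR of a gene was the union over its transcripts for levels per kb, and the longest one for length classes and positions. Sites up to 15 nt apart were joined into a stretch. With 1 group of 2 replicates no test over samples was possible, and members were described by counts beside those of all genes. The members given in full were those of eIF2, eIF2B and eIF5, the 15 others with the most 3′UTR cDNAs, and the 5 with the most cDNAs in each of 5′UTR, CDS and intron. A map of crosslinked positions without the filter was not used. A marker list and a sequence window are not reported here. Analyses ran in Python 3.11.15 with numpy 2.4.6, scipy 1.17.1 and matplotlib 3.10.9, and 1000 of 1000 made-up sites were assigned correctly in a check on simulated data. Alternatives changed the count minimum, the order of features, the annotation, small RNA overlaps, the weighting of sites and the replicate left out.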

Additional observations from a re-analysis of the deposited data

How the results depend on the processing

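The 38 calls became 22 with at least 10 cDNAs in each replicate and also 22 with pooled sites of at least 5 cDNAs, and lay between 40 and 47 with a replicate left out. With that minimum of 10, the calls fell to 1 for eIF2, 0 for eIF2B and 2 for eIF3, and with a replicate left out the eIF3 count was 8 to 11. The 3′UTR share was 78.1% to 82.5% with a replicate left out, 84.9% with sites of at least 5 cDNAs, 80.5% without sites in small RNAs and 73.7% without Eif5a, the member with the most cDNAs. Among alternatives chosen after seeing the data, it was 84.0% without Eif4g2 and 75.9% without recurring sites, and giving the rest of the pooled count to the other library at sites called in 1 replicate gave 41 calls, with Eif2s1, Eif3k and Eif6 added. The rank by median cDNAs per kb of 3′UTR was taken among eIF2, eIF2B, eIF3, eIF4 and eIF5 only. It left out the eIF2-like factors and eIF1, whose medians of 85.0 (2 genes far apart) and 71.3 were above the 50.8 of eIF4. Among the ranked complexes eIF4 stayed first and eIF2B last with a replicate left out, whereas eIF2 ranked 2 to 3, eIF3 2 to 4 and eIF5 3 to 4. The U content at 3′UTR sites was 45.9% with sites weighted by cDNAs and 42.0% to 46.6% with a replicate left out. Members with 5′UTR cDNAs numbered 5 when at least 5 were required of a gene. The other 62 of 80 values moved by less than the spread between replicates or, for counts, by no more than 1.5 times. Replicate 2 is the shallower library, and a 0 there means only that no site passed the filter. No paired analysis was possible because there was a single group.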
